A study of Mus musculus with 12 samples.

Results

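The transcripts of 10 genes for cartilage matrix proteins were examined in whole forelimbs of E12.5 mouse embryos, the stage at which limb cartilage is forming. The genes were taken by symbol: Col2a1, Acan, Col9a1, Col9a2, Col9a3, Col11a1, Col11a2, Matn1, Comp and Hapln1. All 10 were found among the 51826 gene identifiers of the forelimb table, and all 10 were among the 19987 genes that held enough counts to be tested. The forelimb libraries came from 2 wild-type (WT) samples and 2 samples in which Impdh2, which encodes an enzyme of guanine nucleotide synthesis, was deleted in limb mesenchymal progenitors (Prx-cKO, 2 samples). The labels do not give the allele or say whether embryos were pooled, and p-values therefore measure the spread between these samples, which may be technical. The series also holds 8 libraries labelled as osteoclasts, grown from bone marrow cells from WT mice or from mice lacking Impdh2 in myeloid cells (LysM-cKO), titled R40D3 or R0D3 with 2 libraries per group. They are used here as a background without cartilage. Their labelled protocol is 3 days with L929 supernatant equal to 20 ng/ml M-CSF, then 40 ng/ml RANKL, and the labels do not say how it differed between the titles.

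Cartilage is laid down in the limb bud when mesenchymal cells condense and become chondrocytes. The transcription factor SOX9, with SOX5 and SOX6, switches on genes for a matrix of thin collagen fibrils filled with proteoglycan. Type II collagen, from Col2a1, makes the body of the fibril. Type XI collagen, built from the chains of Col11a1 and Col11a2 with a chain from Col2a1, lies inside it and limits its width, and type IX collagen, from Col9a1, Col9a2 and Col9a3, decorates its surface. Aggrecan, from Acan, holds water between the fibrils and is tied to hyaluronan by link protein, from Hapln1. Matrilin-1 (Matn1) and cartilage oligomeric matrix protein (Comp) are adaptors that bind collagens and proteoglycans.

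Promoter sequences were read from RefSeq for GRCm38.p6, and 7 of the 10 genes matched, with 2 start sites for Col9a1. Col2a1, Col9a3 and Comp were not matched. The 250 bases before the start site, plus strand, are shown for the 3 genes with the largest differences between genotypes and, beside Col11a2, for its partner chain Col11a1, with the GC box GGGCGG (either strand) in capitals. They lie at chr7:79052976-79053225 (Acan), chr4:130944135-130944384 (Matn1), chr17:34038888-34039137 (Col11a2) and chr3:114030290-114030539 (Col11a1).
Acan: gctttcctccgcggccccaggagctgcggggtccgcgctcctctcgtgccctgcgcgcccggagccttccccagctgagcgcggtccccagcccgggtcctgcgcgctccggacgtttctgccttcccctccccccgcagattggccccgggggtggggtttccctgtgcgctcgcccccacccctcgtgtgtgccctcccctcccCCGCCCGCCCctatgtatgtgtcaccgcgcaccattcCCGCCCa
Matn1: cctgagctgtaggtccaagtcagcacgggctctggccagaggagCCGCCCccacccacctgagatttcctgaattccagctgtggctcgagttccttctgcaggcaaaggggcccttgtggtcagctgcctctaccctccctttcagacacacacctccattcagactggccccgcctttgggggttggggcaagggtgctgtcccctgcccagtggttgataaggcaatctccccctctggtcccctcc
Col11a2: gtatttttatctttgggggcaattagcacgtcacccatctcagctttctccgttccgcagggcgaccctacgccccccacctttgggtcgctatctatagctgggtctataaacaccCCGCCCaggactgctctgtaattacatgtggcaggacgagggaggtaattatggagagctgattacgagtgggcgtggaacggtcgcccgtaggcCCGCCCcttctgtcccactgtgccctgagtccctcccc
Col11a1: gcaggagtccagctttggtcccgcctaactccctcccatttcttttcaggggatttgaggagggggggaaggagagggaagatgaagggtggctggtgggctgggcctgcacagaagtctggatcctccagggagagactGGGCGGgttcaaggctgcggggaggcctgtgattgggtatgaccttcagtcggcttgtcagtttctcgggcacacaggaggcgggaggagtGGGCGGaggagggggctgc

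Motifs were searched on both strands in windows from 250 bases before to 50 after each start. The GC box was in 5 of the 8 windows of these genes, against 35.66% of all 32851 windows. The SOX core, searched as ACAAAG or ACAATG, was in 0 of 8 windows, against 28.6% of all windows. TATAAA was in 1 of 8, that of Col11a2, against 13.62%. The Acan window had the highest share of G and C among these genes, 74%, where the median of all windows was 52.67%. Of the 250 bases before the start, 250 for Hapln1 and 181 for Col9a2 lie in GENCODE exons of the same gene. These windows are therefore not all sequence upstream of the gene. The matches describe letters in short windows, and distant enhancers were not examined.

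In Prx-cKO forelimbs 9 of the 10 genes were lower than in WT, with both Prx-cKO libraries below both WT libraries, and the exception was Hapln1. The summed level of the 10 genes was 983 and 1045 CPM (counts scaled to library size) in WT replicates 1 and 2 and 429 and 332 CPM in Prx-cKO replicates 1 and 2. The fitted log2 fold changes ran from −4.25 for Acan to −0.27 for Hapln1, with a median of −1.59, while the median over all tested genes was −0.03. A log2 fold change of −1 or lower was seen in 8 of the 10 genes, against 5.18% of all genes tested. Both Prx-cKO libraries lay below both WT libraries in 9 of 10, against 21% of all genes. The 10 genes were chosen with earlier results of these data known, so these shares describe the list and are no independent test.

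None of the 10 passed the threshold, an edgeR quasi-likelihood p under 0.05 after Benjamini-Hochberg adjustment over all genes tested. That threshold was passed by 0% of genes (0 of 19987), so the count of calls does not set these genes apart from any other. An unadjusted p under 0.05 with a lower level in Prx-cKO was reached by 9 of 10, against 4.61% of all genes. DESeq2 called 8 of the 10 as lower, all but Comp and Hapln1, against 0.752% of genes with an adjusted p. Given how the 10 genes were chosen, these shares too are no independent test. Since these are bulk tissue counts, fewer chondrogenic cells and less RNA per cell cannot be told apart.

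The call also turned on single libraries. In edgeR fits without WT replicate 1, which leave 1 WT library assumed to vary like the Prx-cKO pair, the same 8 genes passed that DESeq2 called, against 1.49% of all genes called lower. Without WT replicate 2, Acan, Col2a1, Col9a1 and Matn1 passed, against 0.2%. When either Prx-cKO library was left out, no gene passed, whether among the 10 or outside them.

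**Figure D1:**
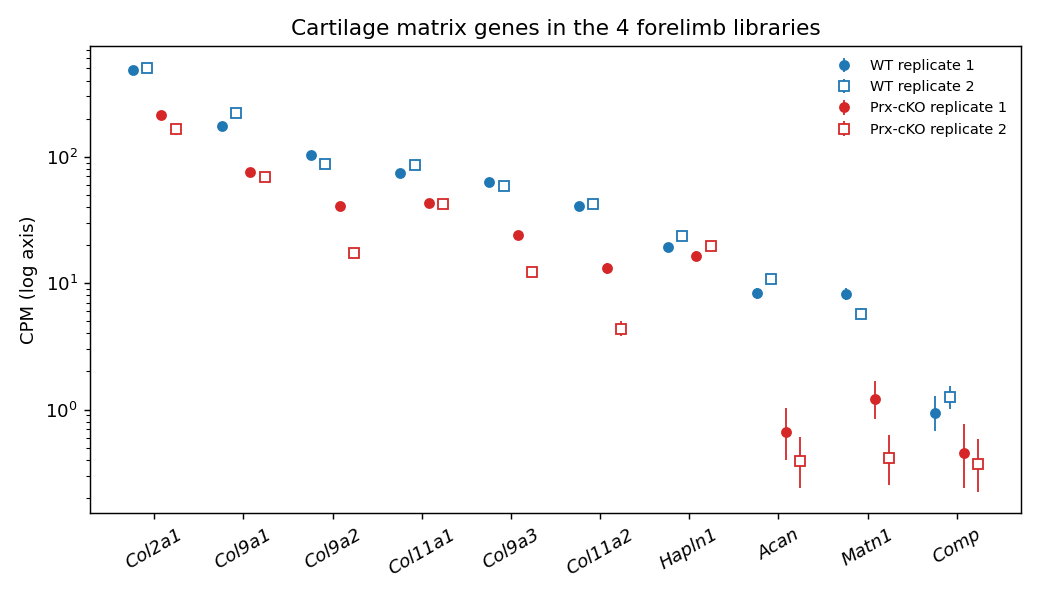
CPM (log axis) of each of the 10 genes in each forelimb library, ordered by mean WT level; bars are 95% exact Poisson intervals, which cover counting error only and are mostly smaller than the symbols. Both Prx-cKO libraries (red) lie below both WT libraries (blue) for every gene but Hapln1, where 19.5 CPM in Prx-cKO replicate 2 exceeds 19.4 in WT replicate 1.

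Type II collagen was the most abundant. Col2a1 (ENSMUSG00000022483, chromosome 15 from 97975602 to 98004695 in GRCm38, on the minus strand, all others being on the plus strand) had 489 and 506 CPM in WT against 214 and 166 CPM in Prx-cKO. The WT libraries were close to each other and both far above the Prx-cKO pair. The WT mean was 498 ± 12.1 CPM and the Prx-cKO mean 189.9 ± 33.5 CPM (SD, n = 2 each), so 38.2% of the WT level remained, and the fitted log2 fold change was −1.39 (SE 0.18; adjusted p 0.32 in edgeR). Gene counts do not separate the splice forms of Col2a1 with and without exon 2.

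The 3 genes of type IX collagen were all lower, but not by the same amount in both Prx-cKO libraries. Col9a1 (chromosome 1, 24177610 to 24252684) had 175 and 224 CPM in WT against 75.5 and 68.6 CPM in Prx-cKO, and the fitted log2 fold change was −1.47 (SE 0.18; adjusted p 0.32 in edgeR). Its Prx-cKO libraries were close together, and 36.1% of the WT mean remained. The table does not separate its 2 start sites.

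Col9a2 (chromosome 4, 121039385 to 121055322) had 103 and 87.0 CPM in WT against 40.9 and 17.3 CPM in Prx-cKO, and the fitted log2 fold change was −1.72 (SE 0.42; adjusted p 0.414 in edgeR). Col9a3 (chromosome 2, 180597790 to 180622189) had 63.3 and 58.7 CPM in WT against 24.1 and 12.2 CPM in Prx-cKO, and the fitted log2 fold change was −1.76 (SE 0.34; adjusted p 0.372 in edgeR). For both genes Prx-cKO replicate 2 was the lowest library. Without Prx-cKO replicate 1 their log2 fold changes were −2.45 and −2.31, and without Prx-cKO replicate 2 they were −1.21 and −1.33. Of the 3853 exonic bases of Col9a3, 234 overlap exons of Tcfl5 on the other strand. It is the only gene of the 10 with such an overlap, and the use of strand in counting is not given in the sources used here.

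The chains specific to type XI collagen differed from each other. Col11a1 (chromosome 3, 114030540 to 114220718) had 74.0 and 85.5 CPM in WT against 43.1 and 42.2 CPM in Prx-cKO, so 53.4% remained (log2 fold change −0.90, SE 0.16, adjusted p 0.332 in edgeR). Its Prx-cKO libraries differed by less than counting error. Col11a2 (chromosome 17, 34039437 to 34066685) had 40.5 and 42.0 CPM in WT against 13.1 and 4.37 CPM in Prx-cKO, so 21.2% remained (log2 fold change −2.27, SE 0.51, adjusted p 0.4 in edgeR). The 2 WT libraries nearly coincided, whereas Prx-cKO replicate 1 was 3.00 times Prx-cKO replicate 2. Without Prx-cKO replicate 1 the log2 fold change of Col11a2 was −3.23, and without Prx-cKO replicate 2 it was −1.65.

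The largest difference was in aggrecan. Acan (chromosome 7, 79053483 to 79115099) had 351 and 769 counts in the WT libraries, or 8.29 and 10.7 CPM. In Prx-cKO it had 19 and 20 counts, or 0.661 and 0.391 CPM, with 95% exact Poisson intervals of 0.398 to 1.03 and 0.239 to 0.605 CPM. These intervals overlap each other and lie far below the WT values. Of the WT mean 5.54% remained, an 18.1-fold lower level with a log2 fold change of −4.25 (SE 0.42, adjusted p 0.26 in edgeR). Over the 11 alternatives run, the adjusted p of Acan ranged from 1.7e-16 to 0.9998, while the log2 fold change stayed between −4.59 and −3.84 when any 1 library was left out.

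Hapln1, the partner of aggrecan, differed far less. Hapln1 (chromosome 13, 89539796 to 89611652) had 19.4 and 23.8 CPM in WT against 16.3 and 19.5 CPM in Prx-cKO. The groups overlapped and 82.8% of the WT mean remained, and the fitted log2 fold change was −0.27 (SE 0.22; adjusted p 0.695 in edgeR). Without WT replicate 2 this became −0.11, and without WT replicate 1 it was −0.45. The ratio of Acan to Hapln1 per kilobase of exon was 0.338 and 0.356 in the WT libraries and 0.032 and 0.016 in the Prx-cKO libraries.

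Both adaptor genes were low in WT and lower still in Prx-cKO. Matn1 (chromosome 4, 130944385 to 130955475) had 8.24 and 5.74 CPM in WT against 1.22 and 0.411 CPM in Prx-cKO, from 35 and 21 counts. Its WT libraries already differed by more than counting error, and the 11.6% that remained in Prx-cKO was an average of unequal libraries (log2 fold change −3.23, SE 0.56, adjusted p 0.332 in edgeR). Without Prx-cKO replicate 1 it was −4.06 and without Prx-cKO replicate 2 it was −2.51. Comp (chromosome 8, 70373558 to 70382066), which is best known from later cartilage and tendon, had only 40 and 90 counts in WT and 13 and 19 in Prx-cKO. These were 0.945 and 1.25 CPM against 0.452 and 0.372 CPM, and the fitted log2 fold change was −1.47 (SE 0.50; adjusted p 0.46 in edgeR).

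**Figure D2:**
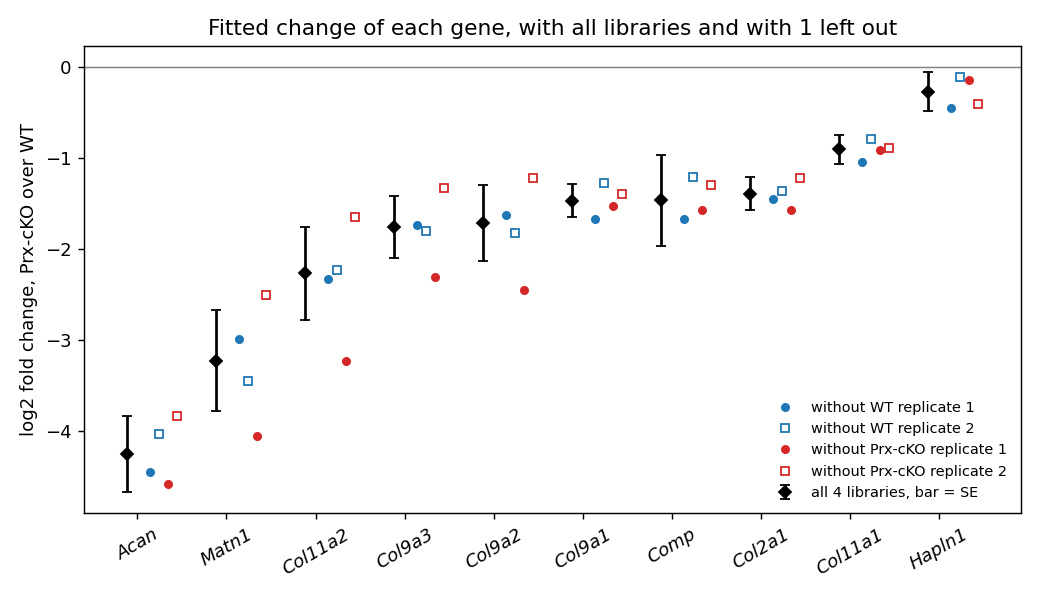
Fitted log2 fold change of each gene, Prx-cKO over WT; the black diamond is the fit on all 4 libraries with its SE, and the coloured points are fits with 1 library left out. Every point is below 0, and leaving out a Prx-cKO library (red) moves Col11a2, Col9a2, Col9a3 and Matn1 most.

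Levels were compared between genes per kilobase of exon, from the union of each gene's exons in GENCODE M21. In WT the order was Col2a1 (53.9 ± 1.31 CPM per kb, SD, n = 2), Col9a1 (39.3 ± 6.74), Col9a2 (30.8 ± 3.72), Col9a3 (15.8 ± 0.854), Col11a1 (6.26 ± 0.639), Col11a2 (6.0001 ± 0.146), Hapln1 (3.66 ± 0.529), Matn1 (3.49 ± 0.885), Acan (1.27 ± 0.229) and Comp (0.371 ± 0.074). Only 2 neighbouring pairs in this order overlapped between libraries, Col11a1 with Col11a2 and Hapln1 with Matn1. In Prx-cKO the first 5 places were the same. Hapln1 then moved above Col11a2, and Acan dropped to the last place at 0.07 ± 0.026 CPM per kb, below Comp at 0.139 ± 0.019. The order of Acan and Comp rests on 19 and 20 counts against 13 and 19. Their counting intervals per kilobase overlap in both Prx-cKO libraries. The Prx-cKO ranges of Col9a2 and Col9a3, and of Col9a3 and Col11a1, overlapped. With the longest transcript of each gene in place of the union, both orders were the same, but Col2a1 in WT was at 97.6 CPM per kb.

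The collagen chains differed in how their proportions compared between genotypes. Per kilobase, Col9a3 stood to Col9a2 at 0.492 and 0.541 in WT and at 0.474 and 0.569 in Prx-cKO, so their ratio differed little between the 4 libraries. Col9a1 to Col9a2 was 1.04 and 1.57 in WT and 1.13 and 2.43 in Prx-cKO. Col11a1 to Col11a2 was near equality in WT, at 0.985 and 1.10, and was 1.77 and 5.21 in Prx-cKO. These ratios are of transcripts and do not measure protein chains.

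Each gene was also set against Col2a1 within its own library, which removes any shared scaling of the library. The log2 ratio to Col2a1 was lower in both Prx-cKO libraries than in both WT libraries for Acan (mean difference −2.81), Matn1 (−1.88), Col11a2 (−1.05) and Col9a3 (−0.42). It was higher in both for Hapln1 (1.13) and Col11a1 (0.50). For Col9a1 (−0.06), Col9a2 (−0.43) and Comp (−0.01) the groups overlapped. With 2 libraries against 2, the smallest two-sided exact permutation p is 0.333, which these 6 non-overlapping ratios reached, and after adjustment over the 9 ratios it was 0.5. Uneven change among the genes was therefore not detectable by this test at this sample size.

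The 2 Prx-cKO libraries differed from each other more than the 2 WT libraries did in a subset of the genes. Prx-cKO replicate 1 was 3.00 times replicate 2 for Col11a2 (95% counting interval 2.54 to 3.56), 2.96 times for Matn1 (1.68 to 5.35), 2.37 times for Col9a2 (2.17 to 2.59) and 1.97 times for Col9a3 (1.77 to 2.20). For the same 4 genes the ratio of WT replicate 1 to WT replicate 2 was 0.966, 1.44, 1.19 and 1.08. For Col2a1 the Prx-cKO ratio was 1.28 (1.24 to 1.33), between these and the rest, against 0.966 in WT. The Prx-cKO ratio was 1.10 for Col9a1, 1.02 for Col11a1 and 0.834 for Hapln1. Both intervals for Acan (0.852 to 3.33) and Comp (0.552 to 2.59) in Prx-cKO were too wide to place them in either set. Skeletal muscle markers also differed between these libraries, summing to 856 CPM in Prx-cKO replicate 1 and 414 CPM in Prx-cKO replicate 2, and their part in the result was not tested.

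**Figure D3:**
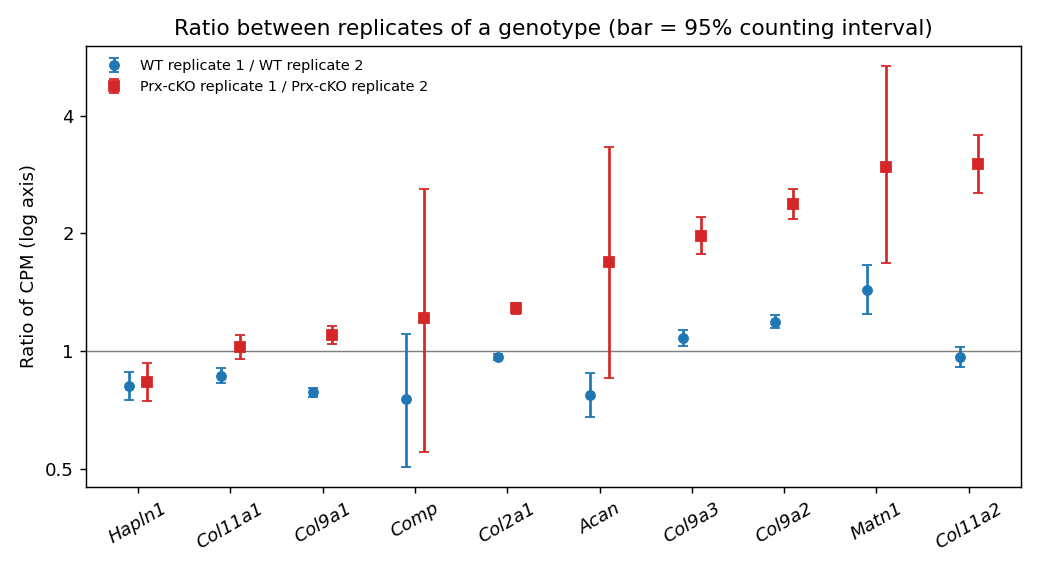
Ratio of CPM between the 2 replicates of each genotype (log axis), with 95% intervals from the exact conditional binomial, which cover counting error only. The Prx-cKO ratio (red) rises to 2.96 for Matn1 and 3.00 for Col11a2, while the WT ratios (blue) lie between 0.754 and 1.44.

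The SOX factors named above were lower to a degree near that of Col2a1 and Col9a1. Sox9 had 109 and 136 CPM in WT against 49.6 and 42.9 CPM in Prx-cKO (log2 fold change −1.40, SE 0.18). Sox6 went from 34.7 and 39.7 CPM to 14.8 and 11.0 CPM (−1.53, SE 0.22), and Sox5 from 23.7 and 38.8 CPM to 9.39 and 10.7 CPM (−1.64, SE 0.30). The shares remaining were 37.8%, 34.8% and 32.1%, beside 38.2% for Col2a1 and 36.1% for Col9a1. The other collagen genes of the list ran from 21.2% (Col11a2) to 53.4% (Col11a1). The edgeR adjusted p of Sox9, Sox6 and Sox5 were 0.32, 0.332 and 0.34, so none of these 3 passed there. Of these SOX genes 3 of 3 were lower at an unadjusted p under 0.05 (4.61% of all genes). DESeq2 called 3 of 3 as lower (0.752% of genes with an adjusted p).

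Other secreted or membrane proteins of cartilage were taken from a list of 16 genes, of which 13 were tested. Their median log2 fold change was −1.02, with 11 lower and 2 higher, where all 19987 genes tested had 10554 lower and 9433 higher. Both Prx-cKO libraries lay below both WT libraries in 10 (21% of all genes tested) and above them in 1 (22.2%). In edgeR 0 passed, and 5 were lower at an unadjusted p under 0.05 (4.61%). DESeq2 called 2, as lower (0.752% of genes with an adjusted p). The 4 with the smallest p were Cnmd, Edil3, Fmod and Matn4. Cnmd, for the angiogenesis inhibitor chondromodulin, had 9.02 and 7.59 CPM in WT against 3.48 and 1.23 CPM in Prx-cKO (log2 fold change −1.89, SE 0.51). Matn4, a relative of Matn1, had 44.0 and 50.6 CPM in WT against 21.5 and 6.32 CPM in Prx-cKO (−1.79, SE 0.56), with the same inequality of the Prx-cKO libraries as Matn1. Another matrilin gene, Matn3, went the other way and was the 1 that lay above WT without overlap. It had 2.74 and 3.33 CPM in WT against 4.17 and 3.99 CPM in Prx-cKO (0.42, SE 0.31). Edil3 and Fmod, whose product fibromodulin binds collagen fibrils, had log2 fold changes of −0.96 (SE 0.27) and −0.81 (SE 0.23). Ucma, Snorc and Col10a1, the last a marker of hypertrophic cartilage, held too few counts to be tested, at most 30 in any library.

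Enzymes and chaperones that sulfate proteoglycans or fold collagens stayed nearer to WT. Of 20 genes, all tested, 17 were lower and 3 higher, with a median log2 fold change of −0.25. All 19987 genes tested had 10554 lower and 9433 higher. Both Prx-cKO libraries lay below both WT libraries in 9 (21% of all genes tested) and above them in 2 (22.2%). In edgeR 0 passed (0% of all genes), and 3 were lower at an unadjusted p under 0.05 (4.61%). DESeq2 called 1, as lower (0.752% of genes with an adjusted p). The one far from the rest was Papss2, which makes the sulfate donor for aggrecan's side chains. It had 14.6 and 16.4 CPM in WT against 5.81 and 2.39 CPM in Prx-cKO, and the fitted log2 fold change was −1.96 (SE 0.45; adjusted p 0.4 in edgeR). P4ha2, a collagen prolyl hydroxylase subunit, Lox, a collagen and elastin cross-linking enzyme, and Chst3, a chondroitin sulfotransferase, had log2 fold changes of −0.64 (SE 0.17), −0.60 (SE 0.22) and −0.60 (SE 0.24).

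Among 14 matrix genes of general mesenchyme the median log2 fold change was −0.20, with 9 lower and 5 higher (10554 and 9433 of all 19987 genes tested). Both Prx-cKO libraries lay below both WT libraries in 8 (21% of all genes tested) and above them in 2 (22.2%). In edgeR 0 passed (0% of all genes), and 3 were lower at an unadjusted p under 0.05 (4.61%). DESeq2 called 0 (0.752% of genes with an adjusted p were called lower). The lowest value was −0.76 (SE 0.25), for Vcan, which encodes versican, a large proteoglycan of the same family as aggrecan. Vcan had 443 and 690 CPM in WT against 347 and 320 CPM in Prx-cKO. Tnc, Col6a3 and Col5a1 had log2 fold changes of −0.73 (SE 0.24), −0.62 (SE 0.20) and −0.35 (SE 0.20). The lists were not tested against each other, and they too were chosen with earlier results of these data known.

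**Figure D4:**
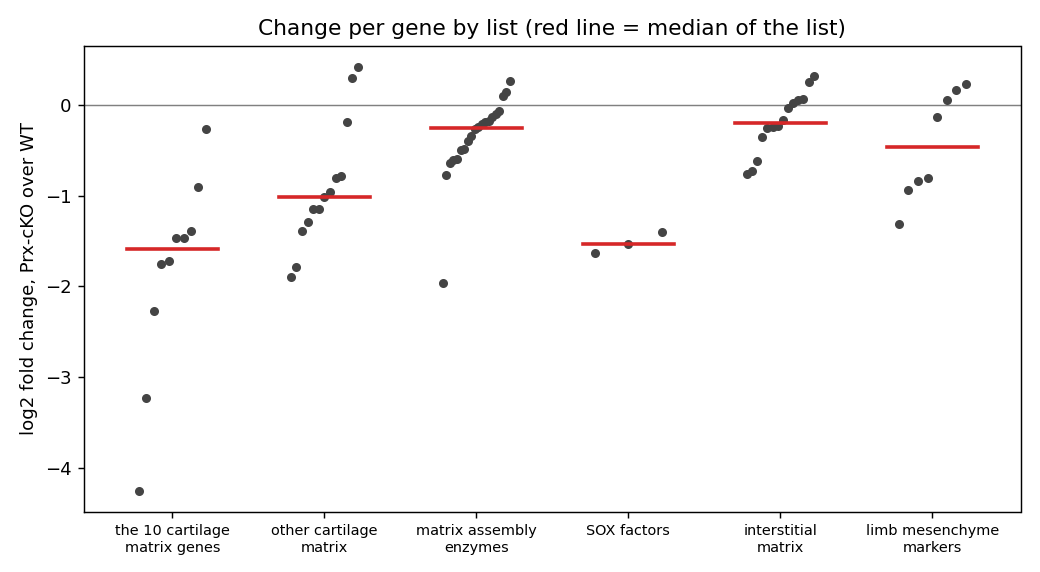
Log2 fold change, Prx-cKO over WT, of every tested gene in 6 lists, with the median of each list as a red line. The medians are −1.59 for the 10 cartilage matrix genes, −1.02 for other cartilage matrix genes, −0.25 for matrix assembly enzymes, −1.53 for the SOX factors, −0.20 for interstitial matrix genes and −0.47 for limb mesenchyme markers.

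The genes whose values over the 4 forelimb libraries were most like those of Col2a1 and of Acan were found by Euclidean distance between centred log2 CPM, among 11327 genes with a WT mean of at least 5 CPM. For Col2a1 they included Sox6 (distance 0.172), Kcnj2 (0.195), Wwp2 (0.2) and Wnk4 (0.202), and the nearest of the 10 genes was Comp (0.266). For Acan no gene was as near. The closest was Ebf1 (0.747), at 44.2 and 89.9 CPM in WT and 6.64 and 4.46 CPM in Prx-cKO, followed by Nkx3-2 (1.36), Miat (1.57), Rflna (1.63) and Hpse2 (1.71), while Matn1 was at 1.23. Over 4 libraries such distances reflect mainly the size of the difference between genotypes.

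Several properties of the libraries are given beside these results, and their part in them was not tested. Impdh2 and the mesenchyme, muscle, endothelial and macrophage marker sums differed between genotypes without overlap. Total counts, mitochondrial shares and the Xist and Ddx3y counts overlapped between genotypes. Total counts were 40931953 and 69466572 in WT and 28892215 and 54452957 in Prx-cKO. Impdh2 itself had 260.4 and 272 CPM in WT against 170 and 199 CPM in Prx-cKO, so 69.3% remained in whole forelimb, which also holds cells outside the mesenchyme. Markers of limb bud mesenchyme were detected in every library, with summed levels of 1778 and 2031 CPM in WT and 1262 and 1340 CPM in Prx-cKO; 4 of 8 were lower without overlap, against 21% of all genes tested, and 1 of 8 higher, against 22.2%. Skeletal muscle markers summed to 308 and 315 CPM in WT, below both Prx-cKO values given above, with 6 of 8 higher without overlap (22.2% of all genes). Endothelial markers (6 of 6) and macrophage markers (4 of 6) were also higher without overlap, read against the same 22.2%, at 127 to 135 against 175 to 177 CPM and at 20.1 to 29.3 against 44.2 to 44.3 CPM. Red cell, surface ectoderm and nerve marker sums overlapped between genotypes, and no marker of any list was at 0 in all 4 libraries. Mitochondrially encoded transcripts took 3.78% and 2.86% of counts in WT and 3.03% and 2.37% in Prx-cKO. WT replicate 1 and Prx-cKO replicate 2 had 92566 and 139968 Xist counts and 0 Ddx3y counts, while WT replicate 2 and Prx-cKO replicate 1 had 114 and 10 Xist counts and 4579 and 1152 Ddx3y counts.

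The marrow cultures gave the level of these genes in cells that make no cartilage, from 16009146 to 19221865 counts per library. Acan, Col9a1 and Hapln1 had 0 counts in all 8 libraries, which allows up to 0.156 to 0.187 CPM per library at 3 counts. Col9a2 had at most 1 count and Col9a3 at most 6. Acan in Prx-cKO forelimb, at 0.661 and 0.391 CPM, was thus above this limit. Other genes of the 10 were present. Col2a1 ranged from 13.3 to 50.3 CPM with a median of 37.9, from 216 to 875 counts, and Col11a1 from 0.678 to 10.1 CPM. Col11a2 ranged from 1.34 to 2.85 CPM and Matn1 from 0.55 to 1.90 CPM, the latter spanning the Prx-cKO forelimb values of 1.22 and 0.411 in part. Comp was above 3 counts in 7 of 8 culture libraries, from 0.123 to 0.55 CPM with a median of 0.413, a range that holds both of its Prx-cKO forelimb values (0.452 and 0.372 CPM). The forelimb and culture tables were scaled separately, so these levels are set side by side without a test.

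**Figure D5:**
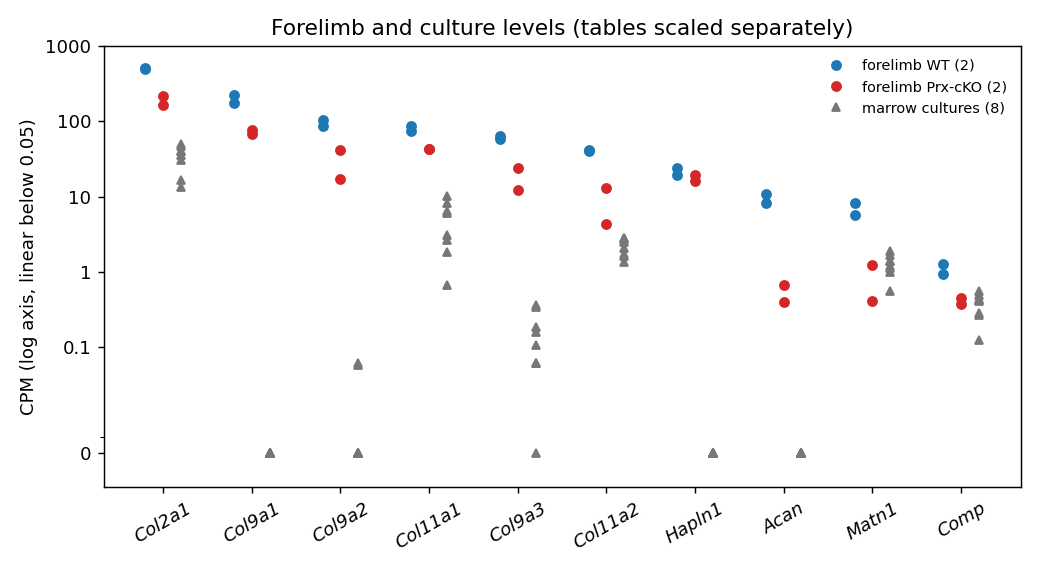
CPM of the 10 genes (log axis, linear below 0.05) in forelimb WT, forelimb Prx-cKO and the 8 marrow culture libraries. Acan, Col9a1 and Hapln1 lie at 0 in all 8 cultures, while Col2a1 lies between 13.3 and 50.3 CPM there.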

How the data were processed

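RNA sequencing counts were analysed for 4 forelimb and 8 marrow culture libraries. The authors deposited whole-number read counts per Ensembl gene, and per the submitters' processing notes FastQC 0.11.2, Trimmomatic 0.36, HISAT2 2.1.0, DESeq2 1.12.4 and GRCm38 were used, with roles not given. The counting tool, annotation and strand setting are not given in the sources used here. Symbols were matched for 99.63% of forelimb identifiers. Positions and exon lengths are from GENCODE M21 on GRCm38, and promoters from RefSeq.

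The forelimb counts were fitted alone with edgeR 4.0.16 (filterByExpr, TMM scaling, quasi-likelihood test with legacy = FALSE, group means only), adjusted by Benjamini-Hochberg over 19987 genes, two-sided, with calls under 0.05. Each SE was derived from the size of the log2 fold change and its F statistic (size over the root of F). CPM use the scaled library sizes. DESeq2 1.42.0 was an alternative, with other scalings, filters, a replicate block and each library left out. Intervals and limits cover counting error only, as reads carry no molecular identifiers. The fitted fold changes were checked on simulated counts, with the same spread set for all genes. This does not test the calls at the spread of these data. All 10 genes were named, with the 4 smallest p of 3 further lists, the SOX factors, and the 5 genes nearest Col2a1 and Acan, of which 1 is not reported here. The members and lists were chosen with earlier results of these data known.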

Additional observations from a re-analysis of the deposited data

Results flagged for a closer look

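The marrow cultures were used only as a background, yet 4 of the 10 cartilage matrix genes held more than 3 counts in all 8 of these libraries. The median over the 8 was 37.88 CPM for Col2a1, 4.596 CPM for Col11a1, 2.27 CPM for Col11a2 and 1.29 CPM for Matn1. Col2a1 was lowest in LysM-cKO R40D3 replicate 2 (13.3 CPM) and LysM-cKO R0D3 replicate 2 (16.8 CPM) and highest in LysM-cKO R0D3 replicate 1 (50.3 CPM). Its levels split by replicate number. The WT replicate 2 libraries (35.2 CPM at R40D3, 30.2 CPM at R0D3) also lay below every replicate 1 library, the lowest being WT R40D3 (40.6 CPM). Col11a1 was likewise lower in every replicate 2 library than in every replicate 1 library. The source of these counts was not tested.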

How the results depend on the processing

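The direction of all 10 genes was kept in all 109 refitted values (other scalings, filters, legacy = TRUE, DESeq2, the replicate block and leaving out each library), of which 89 stayed on the same side of the threshold and 20 passed it. Comp was not tested under the stricter filter (at least 10 counts summed, and 1 CPM in 2 libraries). DESeq2 called 301 genes (145 higher, 156 lower) and 8 of the 10, against 0 and 0 in edgeR. Leaving out each library gave between 0 and 603 called genes and between 0 and 8 of the 10; without WT replicate 1 the counts were 603 and 8, leaving out WT replicate 2 gave 104 and 4, and both were 0 without either Prx-cKO library, and the cause was not tested. The median log2 fold change of the 10 was −1.94 to −1.31 over these fits. With the replicate number as a block 0 genes were called and the median was −1.66; libraries of the same number deviated together across genes (r = 0.261), but with 1 pair of groups this does not show pairing. Of 30 levels recomputed from total counts or the longest transcript, 21 moved by less than 1 SD. Counts of 13 to 35 in Prx-cKO limit the precision of Acan, Matn1 and Comp.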
